A study of Mus musculus with 24 samples.

Results

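The mitochondrial respiratory chain is built partly from proteins that the nuclear genome encodes. The genes described here are the protein-coding rows of a whole-lung mouse expression table whose symbols begin with Nduf, Uqcr, Cox4 to Cox8 or Atp5, or are Sdha, Sdhb, Sdhc or Sdhd. The rule found 94 of 54532 rows, which carry 93 distinct symbols because Atp5o is listed at 2 gene identifiers. Complex I contributed 44 tested genes, complex II 4, complex III 8, complex IV 18 and ATP synthase, or complex V, 17. In all, 91 members had enough counts to be tested, and Cox8c, Cox7b2 and the second Atp5o row (ENSMUSG00000116933) did not. Cox8c and Cox7b2 are isoforms best known from testis, and no library exceeded 0.0815 CPM of the former or 0.296 CPM of the latter (CPM, counts per 1000000 of the scaled library).

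Young male mice of the strain C57BL6/j breathed normal or reduced oxygen, and their lungs were taken at day 2. Within each oxygen condition, mice had either ABT-263, 50 mg/kg/day, or its vehicle. ABT-263, also called navitoclax, inhibits the survival proteins of the BCL-2 family and is used to kill senescent cells. Each of the 4 groups, normoxia with vehicle, normoxia with ABT-263, hypoxia with vehicle and hypoxia with ABT-263, had 6 libraries of whole-lung poly(A) RNA. The labels give neither the oxygen level nor a genetic modification. All groups share strain, sex and duration, so the groups model only a brief exposure, and whole lung mixes many cell types.

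Electrons from NADH enter the chain at complex I and those from succinate at complex II. They pass through coenzyme Q, complex III and cytochrome c to complex IV, which reduces oxygen, and the proton gradient built on the way drives ATP synthase. In cultured cells, low oxygen is known to act on the chain through hypoxia-inducible factors, which raise the alternative subunits Cox4i2 and Ndufa4l2. Cox4i2 is the isoform of Cox4i1 long known for its high level in lung, and Ndufa4l2 is the relative of Ndufa4, a subunit named for complex I and later assigned to complex IV.

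Library totals ran from 12643484 to 17295233 expected counts. Together, 6 epithelial and endothelial genes of lung (Sftpc, Sftpb, Ager, Scgb1a1, Pecam1, Cdh5) reached between 67150 and 156800 CPM in the 24 libraries. Under vehicle their sum was 111600 to 125500 CPM in normoxia and 67150 to 122600 CPM in hypoxia, and none of the 6 passed an adjusted p of 0.05. Of 7 genes that link hypoxia-inducible factors to mitochondria or glycolysis, 6 rose in hypoxia under vehicle and Lonp1 fell. Among the 6, Bnip3, a mitophagy receptor, went from a mean of 43.5 to 141 CPM, and Ldha, which makes lactate from pyruvate, from 302 to 618 CPM. All 7 erythroid genes and all 5 proliferation genes tested also rose in that comparison, where 18.9% of all genes tested rose. The library that correlated least with the rest of its group was library 1 of hypoxia with ABT-263, with a median r of 0.978. Libraries also differed in how short transcripts stood against long ones, which is given with the results on transcript length below.

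Hypoxia under vehicle was accompanied by higher levels of most respiratory chain genes. Of 91 members tested, 55 rose and 1, Sdha, fell, while 35 did not pass an adjusted p of 0.05. Over all 16935 genes tested, 18.9% rose and 16.8% fell. The median log2 fold change of the members was 0.35, against -0.04 over all genes tested, and 82 of the 91 were positive. Members are short transcripts, and of 716 other genes under 1000 bases that average 20 CPM or more, 52.1% rose, with a median of 0.29. With the trend of each library on transcript length removed, 46 members rose and 3 fell, and their median was 0.20. Single changes were small, from -0.43 to 0.76 on the log2 scale, with a median standard error of 0.10. In 26 members every hypoxia library was above every normoxia library, and in 1, Sdha, every one was below. The same separation held for 10.9% of all genes upward and 6.9% downward. In RNA from whole lung, a change in the share of cells of a type and a change in RNA per cell cannot be told apart.

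**Figure D1:**
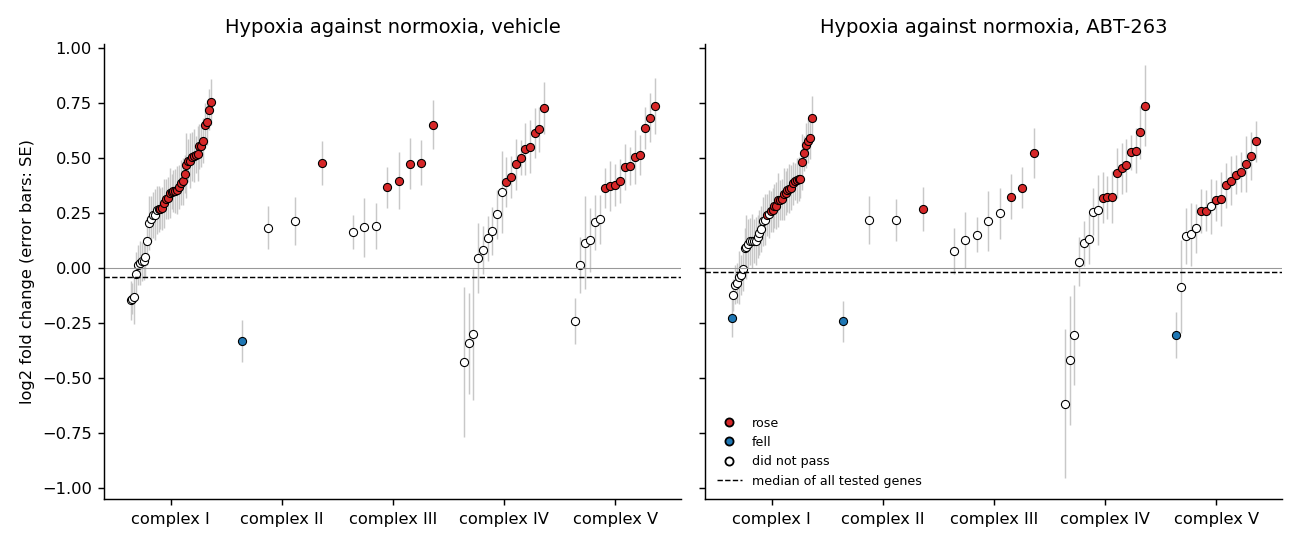
The log2 fold change of each tested member, hypoxia against normoxia, ordered by size within complexes I to V, under vehicle (left) and under ABT-263 (right). Bars are standard errors, red points rose, blue points fell, open points did not pass an adjusted p of 0.05, and the dashed line is the median of all tested genes (-0.04 and -0.02). Most points of every complex lie above that line, and Sdha is the blue point of complex II in both panels.

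Summed over the 94 genes, the members took 9295 to 12256 CPM in normoxia with vehicle (median 10376) and 12183 to 16516 CPM in hypoxia with vehicle (median 13509). Normoxia with ABT-263 lay at 10967 to 12869 CPM and hypoxia with ABT-263 at 11728 to 15791 CPM. Under vehicle, the highest normoxia library, library 3, was just above the lowest hypoxia library. Complex I carried the largest summed level in normoxia with vehicle, 3410 ± 292 CPM (SD, n = 6), and complex II the smallest, 608 ± 46.2 CPM (SD, n = 6). In hypoxia with vehicle the sums were 4389 ± 563 CPM for complex I and 676 ± 85.6 CPM for complex II (SD, n = 6). These sums are not scaled by transcript length or by the number of genes, 44 in complex I and 4 in complex II. They do not rank the levels of single genes.

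**Figure D2:**
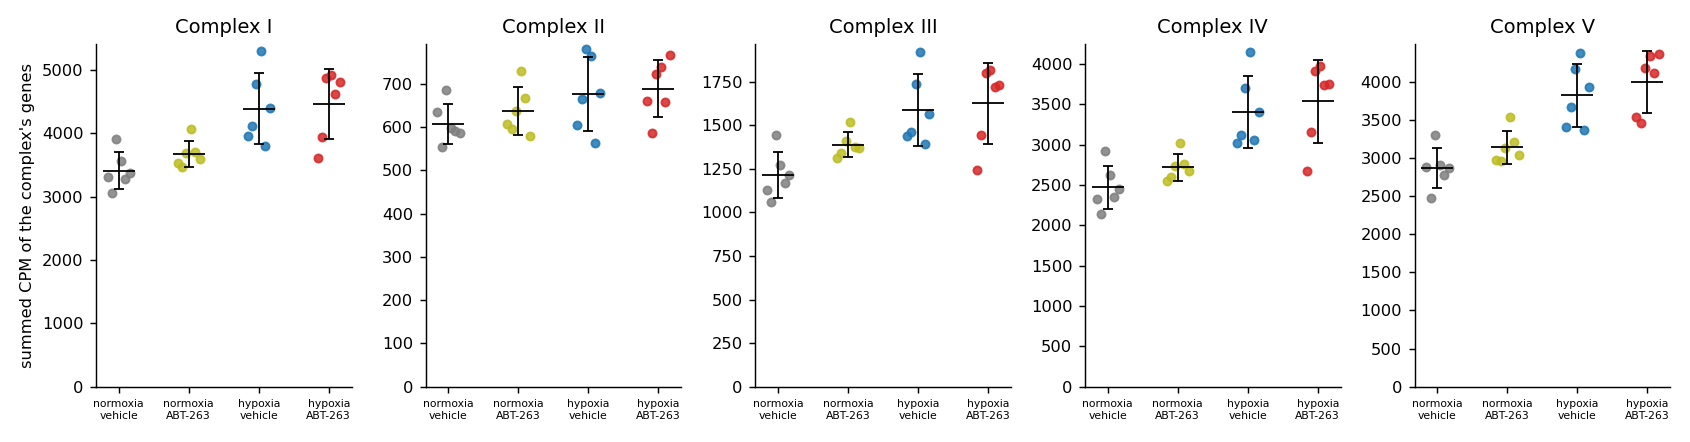
Summed CPM of the genes of each complex in every library (points), by group, with the mean and SD over 6 libraries (black). Under vehicle the sums of complex IV (2145 to 2921 CPM in normoxia, 3023 to 4148 CPM in hypoxia) and complex V (2483 to 3304 and 3373 to 4385 CPM) did not overlap, those of complex I (3054 to 3903 and 3799 to 5296 CPM) did, and library 1 of hypoxia with ABT-263, at 11728 CPM over all complexes, was the lowest of its group.

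Complex I is assembled from core subunits, which carry the redox centres and the quinone site, around which accessory subunits are added with the help of assembly factors. Under vehicle, 29 of its 44 tested genes rose in hypoxia and none fell at an adjusted p of 0.05. The accessory subunits accounted for most of them, with 24 of 29 risen and a median log2 fold change of 0.36. Only 2 of the 7 nuclear core subunits rose, with a median of 0.05, and 3 of the 8 assembly factors. Transcripts of the core subunits had a median of 1312 bases and those of the accessory subunits 704 bases, and the relation to length is given below.

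Ndufa11, an accessory subunit of the membrane arm, had the smallest p of all members. Its level was 65.2, 71.9 and 85.4 CPM (lowest, median and highest library) in normoxia with vehicle and 108, 116 and 151 CPM in hypoxia with vehicle. Every hypoxia library was above every normoxia library, and the log2 fold change was 0.72 (SE 0.10, adjusted p 2.6e-06). Ndufb6, another accessory subunit of the membrane arm, had the largest fold change of all members. It ran at 53.6, 60.2 and 69.9 CPM in normoxia and 94.7, 97.9 and 124 CPM in hypoxia, and the groups did not overlap. The log2 fold change of Ndufb6 was 0.76 (SE 0.10, adjusted p 4.09e-06). Ndufb9, an accessory subunit of the LYR-motif family, stood at 115, 136 and 181 CPM against 199, 222 and 272 CPM. Its groups were separate as well, with a log2 fold change of 0.66 (SE 0.10, adjusted p 1.86e-05). Counts of Ndufb6 and Ndufb9 were not whole numbers in 20 or more of the libraries, which in this kind of table marks reads shared between genes, and 11 of the 94 members had such counts.

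Among the core subunits, Ndufv2 and Ndufs8, which both hold iron-sulphur clusters, were those that rose. Ndufv2 was measured at 128, 137 and 174 CPM in normoxia with vehicle and 187, 207 and 253 CPM in hypoxia with vehicle, without overlap, and its log2 fold change was 0.56 (SE 0.10, adjusted p 0.000103). Ndufs8 had a log2 fold change of 0.43 (SE 0.09, adjusted p 0.000427), with overlapping groups. The remaining 5 core subunits had values between -0.15 (Ndufs7) and 0.12 (Ndufs3), and Ndufs1, the largest subunit of the complex, had -0.14 (SE 0.07, adjusted p 0.136). The assembly factors that rose were Ndufaf6, Ndufaf5, a methyltransferase-like protein that hydroxylates Ndufs7, and Ndufaf2. Their log2 fold changes were 0.52, 0.49 and 0.35.

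Complex II, succinate dehydrogenase, has only 4 subunits, all nuclear, and takes part in the citric acid cycle as well as in the chain. Its members went in different directions. Sdha, the flavoprotein that oxidises succinate, fell from 185, 199 and 228 CPM in normoxia with vehicle to 133, 161 and 180 CPM in hypoxia with vehicle. No hypoxia library reached the lowest normoxia library, and the log2 fold change was -0.33 (SE 0.10, adjusted p 0.00825). Sdhd, one of the membrane anchors, rose from 170, 190 and 247 CPM to 237, 266 and 323 CPM. Its groups overlapped at the highest normoxia library, and the log2 fold change was 0.48 (SE 0.10, adjusted p 0.000563). Sdhb, the iron-sulphur subunit, had a log2 fold change of 0.18 and Sdhc, the other anchor, of 0.21, and neither passed (adjusted p 0.135 and 0.131). Without library 5 of hypoxia with vehicle, Sdhc passed at an adjusted p of 0.0458. Per kilobase of transcript, Sdhd was at 160 ± 22.2 CPM (SD, n = 6) in normoxia with vehicle, above Sdhb (74.5 ± 7.60), Sdha (69.5 ± 5.31) and Sdhc (62.8 ± 4.17), whose values lay close together.

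Bases upstream of genes from these comparisons are shown to set a gene that fell beside its partner that rose. Ndufa11, with the smallest p of complex I, and Atp5e, with the largest fold change of complex V, are shown as well. Sequences are from RefSeq (GRCm38.p6), 250 bases ending just before the annotated start, 5' to 3' on the gene's own strand. Capitals mark matches, on either strand, to GCGCA and GCGC with any 1 base between them (the core of the NRF1 motif), CCGGAAG (an ETS motif that GABP can use), AAGATGG (a YY1 motif) and ACGTG (the core of the hypoxia response element). Ndufa11 is at chr17:56717512-56717761 on the plus strand, and the other regions are on the minus strand: Atp5e at chr2:174464102-174464351, Sdhd at chr9:50603850-50604099 and Sdha at chr13:74350241-74350490.
Ndufa11: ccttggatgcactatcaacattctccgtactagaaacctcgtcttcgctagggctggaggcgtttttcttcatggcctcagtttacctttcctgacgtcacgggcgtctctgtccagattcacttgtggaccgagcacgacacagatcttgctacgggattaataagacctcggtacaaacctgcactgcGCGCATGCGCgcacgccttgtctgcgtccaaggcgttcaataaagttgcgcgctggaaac
Atp5e: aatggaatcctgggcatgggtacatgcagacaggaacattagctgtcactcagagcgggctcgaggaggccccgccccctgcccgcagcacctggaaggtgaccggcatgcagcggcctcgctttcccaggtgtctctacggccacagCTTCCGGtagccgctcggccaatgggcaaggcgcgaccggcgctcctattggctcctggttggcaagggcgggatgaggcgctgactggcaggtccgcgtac
Sdhd: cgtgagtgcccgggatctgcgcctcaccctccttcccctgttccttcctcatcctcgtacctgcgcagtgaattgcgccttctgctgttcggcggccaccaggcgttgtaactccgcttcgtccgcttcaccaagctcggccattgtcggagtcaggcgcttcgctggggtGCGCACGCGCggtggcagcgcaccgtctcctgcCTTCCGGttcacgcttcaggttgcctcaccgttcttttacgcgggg
Sdha: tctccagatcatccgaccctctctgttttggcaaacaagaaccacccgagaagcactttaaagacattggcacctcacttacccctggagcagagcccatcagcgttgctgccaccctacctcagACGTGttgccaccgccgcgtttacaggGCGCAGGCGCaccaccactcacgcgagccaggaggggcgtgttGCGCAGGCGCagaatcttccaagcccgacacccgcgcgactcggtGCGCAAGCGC

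Ndufa11 held 1 NRF1 match, Atp5e held 1 ETS match, and Sdhd held 1 NRF1 and 1 ETS match. Sdha, the member that fell, held 3 NRF1 matches and 1 hypoxia core. The same 250 bases were also read for Ndufb6 and Cox7b, which rose, and are not printed. Ndufb6 held 1 ETS match, and Cox7b held no match to any of these motifs. The promoter table had an entry for 74 of the 93 symbols, each window running from 250 bases before to 50 bases after the start. In those windows the NRF1 letters were found in 19 of 74 members (25.7%) and in 5.19% of the 27025 genes of the table. The ETS letters were found in 24.3% of members against 9.93% of genes, and the YY1 letters in 14.9% against 7.28%. The hypoxia core was found in 23% of members against 21.8% of all genes. Among the 46 members with an entry that rose under vehicle, the shares were 30.4% (NRF1), 26.1% (ETS), 19.6% (YY1) and 17.4% (hypoxia core). Among the 27 tested members that did not rise they were 18.5%, 22.2%, 7.41% and 33.3%. These are counts of letters in a window and carry no test. The 27025 genes include genes not tested here and were not matched to the members in expression.

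Complex III passes electrons from coenzyme Q to cytochrome c. Of its 8 members, 5 rose in hypoxia under vehicle, and these were its small subunits Uqcrq, Uqcr11, Uqcr10, Uqcrh and Uqcrb. Uqcrq was at 92.0, 107 and 132 CPM in normoxia with vehicle and at 156, 166 and 215 CPM in hypoxia with vehicle, without overlap. Its log2 fold change was 0.65 (SE 0.11, adjusted p 6.55e-05). Uqcr11 rose from 98.1, 110 and 137 CPM to 141, 154 and 196 CPM, also without overlap (log2 fold change 0.48, SE 0.10, adjusted p 0.000698). Uqcr10 ran at 149, 170 and 212 CPM against 211, 225 and 291 CPM, where the groups touched, and had a log2 fold change of 0.47 (adjusted p 0.00239). The large core proteins Uqcrc1 and Uqcrc2 and the Rieske iron-sulphur protein Uqcrfs1 had log2 fold changes of 0.19, 0.17 and 0.19, and none passed. Transcripts of the 5 that rose had 434 to 535 bases, and those of Uqcrc1, Uqcrc2 and Uqcrfs1 1363 to 1896 bases. With the trend on transcript length removed, the same 5 passed, at 0.184 (Uqcrb) to 0.464 (Uqcrq). Uqcrc1, Uqcrc2 and Uqcrfs1 then had 0.157, 0.169 and 0.126. The part of length in this contrast was not tested. Cyc1, the cytochrome of complex III that the rule leaves out, rose by 0.27 on the log2 scale (SE 0.07, adjusted p 0.00238), and cytochrome c itself, Cycs, by 0.42 (SE 0.08, adjusted p 0.000256).

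Complex IV, cytochrome c oxidase, contains subunits with tissue isoforms, and these were separated by role. Of the 11 widely expressed subunits, 9 rose in hypoxia under vehicle, with a median log2 fold change of 0.50 over the 11. Cox7b, a small membrane subunit, was at 138, 167 and 215 CPM in normoxia and 251, 275 and 307 CPM in hypoxia, without overlap (log2 fold change 0.73, SE 0.12, adjusted p 4.08e-05). Cox7a2 stood at 146, 162 and 203 CPM against 230, 251 and 310 CPM and had a log2 fold change of 0.63 (SE 0.10, adjusted p 3.2e-05). Cox5b, the zinc-binding subunit, went from 62.5, 74.6 and 85.8 CPM to 95.1, 103 and 117 CPM, with a log2 fold change of 0.50 (SE 0.08, adjusted p 2.87e-05). In all 3 the groups were separate. Cox5a (0.24) and Cox8a (0.17) were the widely expressed subunits that did not pass. Cox7a2l, classed here as a supercomplex factor, had a value of 0.08 (SE 0.11, adjusted p 0.592).

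Neither of the hypoxia isoforms passed the test under vehicle. Cox4i2 was at 37.8, 49.0 and 62.3 CPM in normoxia with vehicle and at 35.1, 46.5 and 69.9 CPM in hypoxia with vehicle. The hypoxia range enclosed the normoxia range, and the log2 fold change was 0.05 (SE 0.16, adjusted p 0.84). The sign of this value turned when any of 4 libraries was left out, with values from -0.07 to 0.14 over all 24 such fits. The 4 were libraries 5 and 6 of normoxia with vehicle and libraries 4 and 6 of hypoxia with vehicle, and the value also turned, to -0.13, when library trends on transcript length were removed. Ndufa4l2 was at 18.6, 24.1 and 28.3 CPM against 22.4, 28.7 and 40.3 CPM, with a log2 fold change of 0.35 (SE 0.19, adjusted p 0.149). That value was close to the median of all members, 0.35, whose median standard error was 0.10. In hypoxia with vehicle, 3 of 6 Ndufa4l2 libraries lay above all normoxia libraries and the others lay within their range.

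Their widely expressed partners rose. Cox4i1 was at 430, 478 and 590 CPM in normoxia with vehicle and 666, 707 and 959 CPM in hypoxia with vehicle, without overlap (log2 fold change 0.61, SE 0.12, adjusted p 0.000171). Ndufa4 was at 248, 288 and 354 CPM against 379, 414 and 523.6 CPM, without overlap (log2 fold change 0.55, SE 0.12, adjusted p 0.000888). Cox4i1 overlaps another annotated gene on its strand, Gm20388, so its counts could have been divided between them. Its counts were not whole numbers in 17 libraries, a mark of shared reads, and the gene that shared them was not examined. Ndufa4l2 overlaps Shmt2 on the opposite strand, and whether the counting used strand is not stated.

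**Figure D3:**
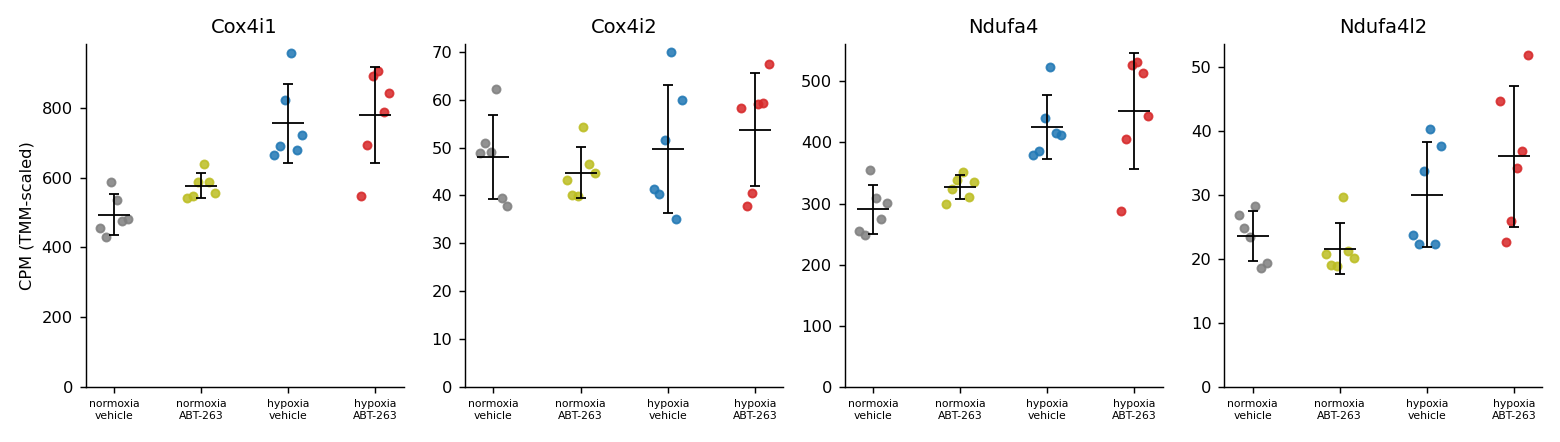
CPM of Cox4i1, Cox4i2, Ndufa4 and Ndufa4l2 in each of the 24 libraries by group, with mean and SD over 6 libraries in black and each vertical axis starting at 0. Cox4i1 and Ndufa4 under vehicle separate by oxygen, while the Cox4i2 groups overlap throughout and Ndufa4l2 spreads widest, from 22.6 to 51.8 CPM, in hypoxia with ABT-263.

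With counts scaled by transcript length, Cox4i2 made up 9.16% ± 1.55 (SD, n = 6) of the sum of Cox4i2 and Cox4i1 in normoxia with vehicle. In hypoxia with vehicle it made up 6.30% ± 1.02 (SD, n = 6). The difference of -2.86 percentage points had an exact two-sided permutation p of 0.00433, where 0.00216 is the smallest 6 against 6 libraries can give. After Benjamini-Hochberg adjustment over the 24 isoform shares and comparisons tested, the p was 0.052 and the difference did not pass. Among mice given ABT-263, Cox4i2 made up 7.41% ± 0.544 of the pair with normal oxygen and 6.80% ± 1.91 with hypoxia (SD, n = 6), a difference of -0.60 percentage points (exact permutation p 0.476, adjusted p 0.544). The share of Ndufa4l2 against Ndufa4 was 3.90% ± 0.852 in normoxia and 3.32% ± 0.658 in hypoxia (SD, n = 6; exact permutation p 0.216, adjusted p 0.454).

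Pericytes and smooth muscle are known sites of Cox4i2 and Ndufa4l2 in lung. Of 9 pericyte markers, 5 rose and 2 fell in hypoxia under vehicle, and their sum went from between 397 and 543 CPM to between 550 and 803 CPM. Of 7 smooth muscle markers, 4 rose and none fell at an adjusted p of 0.05, and their sum went from between 731 and 928 CPM to between 1740 and 2427 CPM. Of all genes tested, 18.9% rose and 16.8% fell in the same comparison. None of the 9 and none of the 7 was at 0 in a whole group. Their part in the values of the 2 isoforms was not tested. Over the 24 libraries, the log2 levels most like those of Cox4i2 were those of Sgce (Pearson r 0.914), C1qtnf7 (0.872), Cst3 (0.867), Ndufa4l2 (0.864) and Bloc1s5 (0.857). For Ndufa4l2 they were Snx3 (0.951), C1qtnf7 (0.936), Edf1 (0.934), Mxra7 (0.931) and Zcchc17 (0.93). These libraries share the trend on transcript length, and the correlations are a description only.

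The isoforms of heart and skeletal muscle, Cox6a2, Cox7a1 and Cox8b, had negative values in hypoxia, and none passed the test. Cox7a1 was at 4.196, 21.4 and 40.7 CPM in normoxia with vehicle and at 12.8, 15.6 and 20.9 CPM in hypoxia with vehicle (log2 fold change -0.43, SE 0.34, adjusted p 0.343). Cox6a2 was at 13.4, 34.4 and 55.2 CPM against 22.9, 25.6 and 35.1 CPM (log2 fold change -0.34, SE 0.23, adjusted p 0.257). Cox8b was at 4.14, 10.8 and 21.8 CPM against 7.03, 9.12 and 13.2 CPM (log2 fold change -0.30, SE 0.30, adjusted p 0.451). For all 3, the hypoxia libraries lay inside the range of the normoxia libraries, whose own spread was wide.

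That spread went with heart muscle transcripts. The sum of 11 cardiac muscle markers, Myh6 and Nppa among them, ran from 161 CPM in library 2 of normoxia with vehicle to 1953 CPM in library 3, and from 595 to 789 CPM in hypoxia with vehicle. Library 2 also had the lowest level of all 3 muscle isoforms in its group and library 3 the highest. None of the 11 markers was at 0 in a whole group. Under vehicle, 1 of them fell and none rose at an adjusted p of 0.05, where 16.8% of all genes fell and 18.9% rose. Of 8 skeletal muscle markers, 2 were at 0 in all libraries of normoxia with vehicle and 4 were tested, of which Ckm, also expressed in heart, fell and the others did not pass, and the sum of the 8 ran from 9.60 to 43.3 CPM in normoxia with vehicle and from 16.9 to 21.1 CPM in hypoxia with vehicle. The part of either list in the isoform values was not tested. Without library 2 of normoxia with vehicle, Cox6a2 passed with a log2 fold change of -0.51 (adjusted p 0.0393). Without the library of each group that correlated least with its own group, Cox7a1 passed with a log2 fold change of -0.72 (adjusted p 0.0365).

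**Figure D4:**
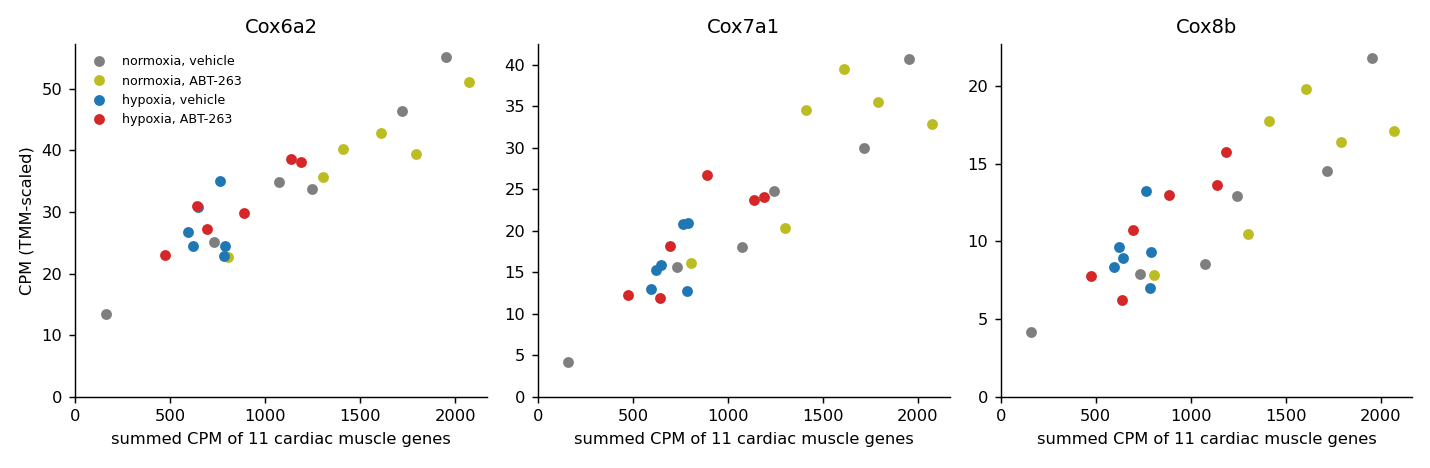
CPM of Cox6a2, Cox7a1 and Cox8b (vertical axes) against the summed CPM of 11 cardiac muscle genes (horizontal axes) in the 24 libraries, coloured by group. The normoxia libraries span 161 to 2072 CPM of cardiac genes and the hypoxia libraries 474 to 1188 CPM, and the lowest points of all panels belong to the normoxia library at 161 CPM.

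The partners of the muscle isoforms did not fall. Cox7a2 rose as given above, and Cox6a1 went from 165, 181 and 200 CPM to 189, 241 and 296 CPM (log2 fold change 0.39, SE 0.11, adjusted p 0.00868). Cox8a, at 159, 172 and 190 CPM against 156, 196 and 225 CPM, did not pass (log2 fold change 0.17, SE 0.11, adjusted p 0.225). Cox6b2, an isoform best known from testis, was measured at 13.3, 16.4 and 17.7 CPM against 14.8, 17.3 and 19.9 CPM (log2 fold change 0.14, SE 0.10, adjusted p 0.304). Its partner Cox6b1 rose from 173, 193 and 224 CPM to 222, 264 and 303 CPM, with slight overlap (log2 fold change 0.41, SE 0.10, adjusted p 0.00165).

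ATP synthase has a catalytic F1 head, a rotating c-ring in the membrane and a peripheral stalk that holds the head still. Under vehicle, 11 of 17 tested members rose in hypoxia and none fell at an adjusted p of 0.05. All 4 peripheral stalk subunits rose, with values from 0.36 to 0.64. Atp5o, the stalk subunit that grips the head, was at 133, 162 and 194 CPM in normoxia with vehicle and 225, 249 and 282 CPM in hypoxia with vehicle, without overlap (log2 fold change 0.64, SE 0.10, adjusted p 1.19e-05). It overlaps the untested second Atp5o row in the annotation. The other stalk subunits were Atp5f1, at 0.51, Atp5j, at 0.38, and Atp5h, at 0.36.

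In the F1 head, 2 of 5 subunits rose, both of the central stalk. Atp5e, the epsilon subunit, was at 224, 262.8 and 325 CPM against 395, 433 and 538 CPM, without overlap (log2 fold change 0.74, SE 0.13, adjusted p 7.65e-05). Atp5c1, the gamma subunit, had a log2 fold change of 0.47 (adjusted p 0.000176). The large subunits that form the catalytic ring, Atp5a1 and Atp5b, had 0.13 and 0.21 and did not pass, nor did Atp5d, the delta subunit, at 0.01. Transcripts of Atp5a1 and Atp5b had 2572.5 and 1916 bases, and those of the peripheral stalk subunits 642 to 1604 bases. With the trend on transcript length removed, Atp5a1, Atp5b and Atp5d had 0.170, 0.214 and -0.131, without passing. The peripheral stalk subunits then ran from 0.191 (Atp5h) and 0.218 (Atp5j) to 0.487 (Atp5o), and all passed. Of the genes for the c-ring, which encode the same mature protein, Atp5g3 (0.40) and Atp5g1 (0.37) rose, and Atp5g2 (0.22) did not pass. Of the other membrane subunits, Atp5k, Atp5mpl and Atp5j2 rose. Atp5k was at 75.8, 86.5 and 105 CPM against 123, 138 and 171 CPM, without overlap (log2 fold change 0.69, SE 0.11, adjusted p 3.04e-05). Atp5l, the last of them, had a low count that was often not whole and is uncertain (0.12, SE 0.21, adjusted p 0.697). Atp5s, a coupling factor rather than a subunit, had -0.24 (SE 0.11, adjusted p 0.0798).

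Per kilobase of transcript in normoxia with vehicle, the most abundant members were Uqcrh at 800.0 ± 116 CPM, Cox4i1 at 655 ± 76.9, Atp5e at 632 ± 92.4 and Ndufa4 at 631 ± 86.1 CPM (SD, n = 6). Cox4i1, Atp5e and Ndufa4 did not differ beyond their spread. Complex I members were lower, with Ndufa7 highest at 335 ± 44.0 CPM and the assembly factor Ndufaf4 lowest at 6.41 ± 0.943 CPM. On the same scale Cox4i2 was at 65.8 ± 12.1 and Ndufa4l2 at 25.2 ± 4.21 CPM. The levels depend on which transcript length is taken for a gene, here the median of its annotated coding transcripts.

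The transcripts of tested members had a median length of 747.5 bases, against 2523 bases over all tested genes. Short transcripts as a whole stood higher in the hypoxia libraries. Against the 52.1% of other short genes given above, 41 of the 52 members under 1000 bases that average 20 CPM or more rose, with a median of 0.40. Among other genes of 1000 bases or more and the same average, 22.2% rose (median -0.01), against 10 of 29 members (median 0.19). A measure of each library, the median deviation of genes under 1000 bases less that of genes over 3000 bases on the log2 scale, ran from -0.20 to -0.01 in normoxia with vehicle and from -0.05 to 0.31 in hypoxia with vehicle. Library 4 of hypoxia with vehicle, at 0.31, also had the highest summed level of members, and library 3 of normoxia with vehicle, at -0.01, the highest of its group.

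With each library's trend on transcript length taken into the model, 46 members rose and 3 fell under vehicle, where 20.2% of all genes rose and 14.9% fell. The median of the members was then 0.20, against -0.01 over all genes. By complex, 21 of 44 members of complex I, 1 of 4 of complex II, 5 of 8 of complex III, 8 of 18 of complex IV and 11 of 17 of complex V rose. Those that fell were Sdha at -0.28 (adjusted p 0.0256), Ndufs7 at -0.30 (adjusted p 0.00241) and Atp5s at -0.28 (adjusted p 0.0359). Ndufb6 kept 0.57, Ndufa11 0.54, Cox7b 0.61 and Atp5e 0.54, and all passed. Cox8a and Cox6b2 turned negative, at -0.02 and -0.06, without passing in either fit. Cox6a1, at 0.20, no longer passed (adjusted p 0.166). How much of the trend belongs to the libraries and how much to the tissue was not tested.

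**Figure D5:**
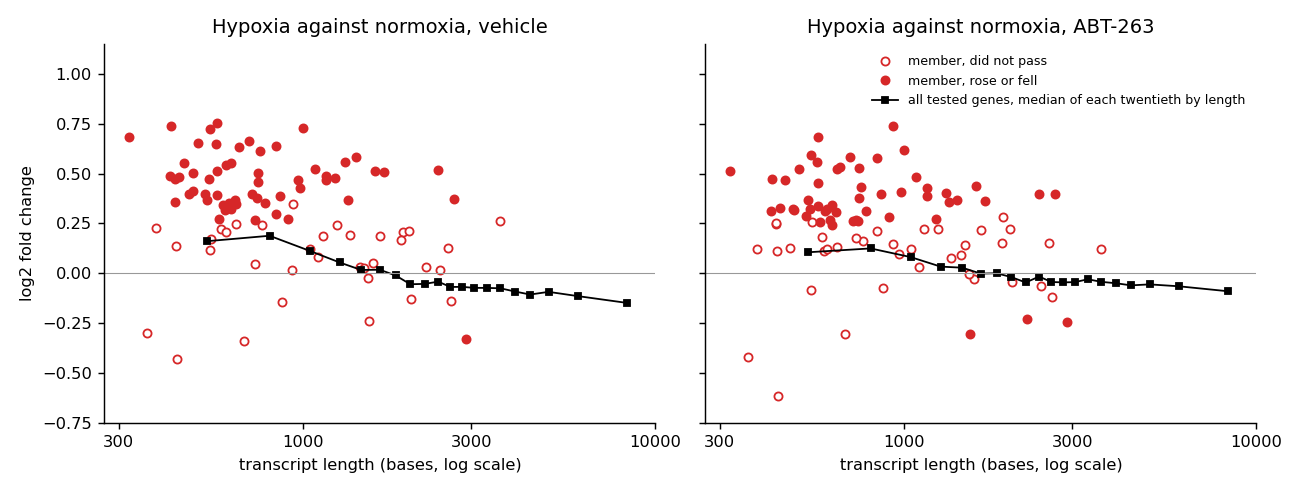
The log2 fold change of each tested member (red points, filled where it rose or fell) against its transcript length on a log axis, for hypoxia against normoxia under vehicle (left) and ABT-263 (right). Black squares are the medians of all tested genes in 20 equal groups by length. The black line declines from short to long transcripts, and most members lie above it.

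Under ABT-263, hypoxia was again accompanied by higher levels of most members. Of 91 tested, 49 rose and 3 fell (Sdha, Ndufaf7 and Atp5s), where 21.6% of all genes rose and 19.4% fell. The median log2 fold change was 0.27, against -0.02 over all genes. By complex, 24 of 44 members of complex I rose, 1 of 4 of complex II, 3 of 8 of complex III, 10 of 18 of complex IV and 11 of 17 of complex V. In 8 of 91 members, a share like the 9.16% of all genes, every hypoxia library was above every normoxia library. They were Ndufb6, Ndufa11, Ndufb9, Ndufv3, Ndufs5, Cox5b, Atp5o and Atp5c1. No member was wholly below, where 5.49% of all genes were. Library 1 of hypoxia with ABT-263, lowest in the length measure at -0.24, had the lowest summed level of members of its group, 11728 CPM, where the other 5 libraries ran from 12585 to 15791 CPM.

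Ndufb6 was at 57.5, 63.3 and 75.4 CPM in normoxia with ABT-263 and at 78.9, 110 and 124 CPM in hypoxia with ABT-263 (log2 fold change 0.68, SE 0.10, adjusted p 1.51e-05). Ndufa11 was at 81.0, 83.6 and 87.7 CPM against 98.9, 136 and 143 CPM (log2 fold change 0.59, SE 0.10, adjusted p 3.21e-05). Both sets of groups were separate. Cox7b, at 178, 193 and 205 CPM against 182, 307 and 347 CPM, overlapped through library 1 of hypoxia (log2 fold change 0.62, SE 0.12, adjusted p 0.000249). Atp5e, at 305, 332 and 357 CPM against 273, 479 and 570 CPM, overlapped likewise (log2 fold change 0.47, SE 0.13, adjusted p 0.00477). Cox4i1, at 542, 573 and 639 CPM against 548, 818 and 909 CPM, rose as well (log2 fold change 0.43, SE 0.11, adjusted p 0.00405).

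Ndufa4l2 rose in hypoxia under ABT-263. It was at 18.9, 20.5 and 29.6 CPM in normoxia with ABT-263 and at 22.6, 35.5 and 51.8 CPM in hypoxia with ABT-263, with overlap. Its log2 fold change was 0.74 (SE 0.19, adjusted p 0.0029), and it passed whichever library was left out (adjusted p 0.000675 to 0.0119). The difference from the change under vehicle, which is the interaction, was 0.39 (SE 0.26, unadjusted p from edgeR 0.147, adjusted p 0.991), so the effects were not shown to differ. Cox4i2 was at 39.8, 43.9 and 54.3 CPM against 37.8, 58.7 and 67.4 CPM and did not pass (log2 fold change 0.27, SE 0.16, adjusted p 0.186). Pericyte markers summed to between 411 and 513.7 CPM in normoxia and between 608 and 823 CPM in hypoxia under ABT-263. Of the 9, 6 rose and none fell at an adjusted p of 0.05, where 21.6% of all genes rose and 19.4% fell. The part of these markers in the Ndufa4l2 result was not tested. The Ndufa4l2 share against Ndufa4 was 3.15% ± 0.475 and 4.01% ± 1.86 (SD, n = 6; exact permutation p 0.368, adjusted p 0.535).

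Sdha fell under ABT-263 too, from 169, 187 and 240 CPM to 139, 168 and 184 CPM, with overlap (log2 fold change -0.24, SE 0.10, adjusted p 0.0445). This call depended on single libraries and was lost in 13 of 24 fits that left out 1 library, with an adjusted p of up to 0.142 without library 4 of normoxia with ABT-263. The 13 were libraries 2, 3, 5 and 6 of normoxia with vehicle, 1, 3, 4 and 5 of normoxia with ABT-263, 2 and 6 of hypoxia with vehicle, and 2, 3 and 5 of hypoxia with ABT-263. Sdhd, at 216, 230 and 239 CPM against 211, 291 and 317 CPM, rose (log2 fold change 0.27, SE 0.10, adjusted p 0.0332). Its call was lost without library 1, 2 or 6 of normoxia with ABT-263 or library 3, 4, 5 or 6 of hypoxia with ABT-263, with an adjusted p of up to 0.0786, and without the filter on low counts (0.28, adjusted p 0.064). Ndufaf7, an assembly factor of complex I, had a log2 fold change of -0.23 (SE 0.09, adjusted p 0.0373), and Atp5s -0.30 (SE 0.11, adjusted p 0.0241). In the fit to these 2 groups alone, 41 members rose and none fell at an adjusted p of 0.05.

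Of the muscle isoforms, Cox7a1 was at 16.1, 33.6 and 39.4 CPM in normoxia with ABT-263 and 11.9, 20.9 and 26.7 CPM in hypoxia with ABT-263 (log2 fold change -0.62, SE 0.34, adjusted p 0.148). Its share against Cox7a2 went from 19.1% ± 5.09 to 9.63% ± 2.01 (SD, n = 6; exact permutation p 0.00216, adjusted p 0.0518). Cardiac markers summed to 805 to 2072 CPM in these normoxia libraries and 474 to 1188 CPM in these hypoxia libraries, and their part in this share was not tested. With the length trend removed, 42 members rose and 2 fell under ABT-263, with a median of 0.18, where 22.3% of all genes rose and 19.8% fell. Among genes that are not members and average 20 CPM or more, 45.5% of those under 1000 bases rose, against 35 of 52 members, and 26% of longer ones, against 10 of 29 members.

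Set side by side, 49 members were called in the same direction in both hypoxia comparisons, 48 upward and Sdha downward. The 7 called only under vehicle were Ndufa12, Ndufb4, Ndufa5, Ndufa3, Ndufb10, Uqcr10 and Uqcrh, and the 3 called only under ABT-263 were Ndufaf7, Ndufa4l2 and Atp5s. Uqcr10 passed under ABT-263 as well without library 1 of hypoxia with ABT-263 (log2 fold change 0.35, adjusted p 0.00695), without the 4 least correlated libraries (0.32, adjusted p 0.0186) and with length and GC trends removed (0.19, adjusted p 0.0301). The interaction of hypoxia with ABT-263 called no member by edgeR, DESeq2 or limma-voom, nor any gene of the table by edgeR (0%). Of the members, 1 had an unadjusted edgeR p under 0.05, Ndufaf7, with an interaction of -0.26 (SE 0.12, adjusted p 0.991). It was measured at 43.1, 46.3 and 50.2 CPM in normoxia with vehicle, 44.5, 54.0 and 62.0 CPM in normoxia with ABT-263, 41.4, 46.0 and 58.3 CPM in hypoxia with vehicle, and 40.9, 44.8 and 52.2 CPM in hypoxia with ABT-263. The interactions of members ran from -0.37 to 0.39, with a median standard error of 0.15, and none passed.

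ABT-263 was not accompanied by a called change of any member. In normoxia, 0 of 91 members passed by edgeR, DESeq2 or limma-voom, where 0.0413% of all genes were called by edgeR. The median log2 fold change of the members was 0.11, against 0.01 over all genes. An unadjusted edgeR p under 0.05 was found for 7 of 91 members and for 1154 of 16935 genes, which are like shares, and the lowest adjusted p of a member was 0.633, for Atp5e (0.32). Values were positive in 78 of 91 members, in 8747 of 16935 genes, and in 549 of 716 genes that are not members, are under 1000 bases and average 20 CPM or more. Uqcrh, the hinge subunit of complex III, was at 318, 379 and 466 CPM with vehicle and 430, 472 and 489 CPM with ABT-263, with overlap (log2 fold change 0.30, adjusted p 0.643). The length measure was higher with ABT-263 in normoxia, at -0.09 to 0.01, and its part in the direction of the members was not tested.

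In hypoxia, 0 of 91 members passed in ABT-263 against vehicle by the same 3 tools, no gene of the table was called by edgeR (0%), and 0 members had an unadjusted edgeR p under 0.05. The median was 0.04, with values from -0.11 to 0.26 and a median standard error of 0.10. Uqcrh was at 444, 465 and 634 CPM with vehicle and 310, 536 and 611 CPM with ABT-263, and Atp5e at 395, 433 and 538 CPM and 273, 479 and 570 CPM.

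The other genes needed for the chain were read from lists drawn up for these pathways. Under vehicle, 6 of 17 tested complex I assembly genes rose in hypoxia (6 of 17 under ABT-263, with 1 that fell), a list that includes Nduf assembly factors of the rule. Tmem126a, a complex I assembly factor outside the rule, rose by 0.63 on the log2 scale (SE 0.10, adjusted p 3.53e-05). Of the complex II and III assembly genes 3 of 10 rose, led by Uqcc2, needed to make cytochrome b, at 0.65 (adjusted p 6.32e-05). Of the complex IV assembly genes 7 of 21 rose and 2 fell, among the latter Sco2, a copper chaperone, with -1.50 (SE 0.36, adjusted p 0.00239). Of the complex V assembly genes 2 of 4 rose. Under ABT-263, 4 of 10 complex II and III, 8 of 21 complex IV and 2 of 4 complex V assembly genes rose, and 2 of complex IV fell. Over all genes tested, 18.9% rose and 16.8% fell under vehicle, and 21.6% rose and 19.4% fell under ABT-263.

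Upstream of the chain, genes went in both directions, and their counts stand beside 18.9% of all genes that rose and 16.8% that fell under vehicle. In coenzyme Q synthesis 3 of 13 genes rose and 2 fell under vehicle, with Coq10b at 0.72 (adjusted p 0.000908) and Coq8a at -0.76 (adjusted p 0.00101). In the citric acid cycle 2 of 17 rose and 1 fell, and the median was 0.02. Of 12 regulators of mitochondrial biogenesis none rose and 2 fell at an adjusted p of 0.05. These were Ppargc1a, a coactivator of respiratory genes, at -0.62 (SE 0.16, adjusted p 0.0035), and Nrf1, whose motif is counted above, at -0.14 (SE 0.05, adjusted p 0.0473). Under ABT-263, 2 genes rose and 3 fell in coenzyme Q synthesis, 2 rose and 1 fell in the citric acid cycle, and 2 rose and 3 fell among the regulators. Median transcript lengths of these lists, in the same order, were 1789, 2491.5 and 2971 bases, against 747.5 for members. Among all genes of 2000 to 3000 bases, 17.1% rose and 18% fell in hypoxia under vehicle. The part of length in these counts was not tested. Of the 13 subunits that mitochondria encode themselves, mt-Co2, mt-Co3, mt-Atp6, mt-Atp8 and mt-Nd4l are listed at 0 in every library and mt-Nd3 at 3 counts in all, so 7 were tested. None of the 7 passed under vehicle (median 0.11, from -0.07 to 0.23), and 1 fell under ABT-263 (median -0.35).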

How the data were processed

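Per the labels' protocols, total RNA of whole lung was made into TruSeq stranded mRNA libraries and sequenced on a NextSeq 500. The authors deposited 1 table of expected counts per gene; the submitters' processing notes name Trimmomatic, STAR, RSEM and the mouse build GRCm38, and no version or annotation release is stated there. Of all values in the table, 91.8% were whole numbers.

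After rounding, genes were compared by edgeR 4.0.16 (R 4.3.3): filterByExpr with a minimum count of 10, TMM scaling, and a robust quasi-likelihood fit with 1 mean per group over all 24 libraries (20 residual degrees of freedom). Benjamini-Hochberg adjustment ran over 16935 genes, and a gene rose or fell at an adjusted p under 0.05. Levels are counts per 1000000 (CPM) of the TMM-scaled library, and sample values are given as lowest, median and highest of 6. Shares of isoform pairs were compared by exact permutation. Depth was 12643484 to 17295233 counts per library; intervals of counts would cover counting error only. Replicate numbers follow the order of the records, no batch is labelled, and no label ties libraries to separate animals, so p-values measure the spread between these libraries. No pair of libraries in a group agreed within sampling noise (lowest chi-square per degree of freedom 6.95). The code was tested on simulated data.

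Transcript lengths are medians of the basic coding transcripts of GENCODE M21, which held all 94 members by gene identifier. DESeq2 1.42.0, limma 3.58.1, other scalings, no filter, only the groups compared, and each library left out were the alternatives; removing trends on length or on length and GC content, and leaving out 4 libraries, were chosen after seeing the data. The members and gene lists were chosen with earlier results of these data known. Genes with full values were the isoform pairs, the Sdh genes, and, in complexes I, III, IV and V, the 3 members with the smallest p in each direction in hypoxia under vehicle among those past the threshold. The library levels of Ndufv2, Ndufaf7 and Uqcrh, and the genes named from the other lists, were chosen after their values were seen.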

Additional observations from a re-analysis of the deposited data

Results flagged for a closer look

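Among 132 groups of 6 libraries examined, for the named genes and the summed complexes, 5 held a library far from the rest by Dixon's test; chance flags about 1 in 20. Ndufa4l2 stood at 29.6 CPM in library 4 of normoxia with ABT-263, where the next library was at 21.1 CPM. Uqcrq was at 135 CPM in the same library, with the next at 123 CPM. Library 4 of hypoxia with vehicle was high in Ndufb6, at 124 CPM against 105 CPM, and in Atp5e, at 538 CPM against 446 CPM. Cox7a2 was low in library 1 of hypoxia with ABT-263, at 188 CPM where the next was at 269 CPM.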

How the results depend on the processing

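Counts of called members stayed within 1.5 times the main value under every alternative run. For hypoxia under vehicle, 49 to 58 were called by the other tools, scalings and filters, with the length trends removed and without the 4 least correlated libraries, and 50 (without library 4 of hypoxia with vehicle) to 64 (without library 5 of that group) with 1 library left out. Under ABT-263 the ranges were 40 to 53, and 39 (without library 1 of normoxia with ABT-263) to 58 (without library 2 of hypoxia with ABT-263). The ABT-263 comparisons and the interaction stayed at 0. The value of Cox4i2 under vehicle reversed to -0.13 with the length trend removed and to -0.042 with length and GC trends removed, and ran from -0.074 to 0.136 with 1 library left out; its cause was not tested. Cox8a and Cox6b2 under vehicle reversed to -0.016 and -0.059 with the length trend removed. Of 1846 single values, these 2 included, 1800 kept direction and call, 26 lost the call and 18 gained it. Sdha under ABT-263 also lost its call without the filter (-0.23, adjusted p 0.123) and with only the groups compared (-0.24, adjusted p 0.0868), with the length trend removed (-0.22, adjusted p 0.0711) and with length and GC trends removed (-0.22, adjusted p 0.0542). Sdhd under ABT-263 lost its call without the filter (0.28, adjusted p 0.064). No paired analysis was possible because the labels give no replicate numbers that groups share.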
